A study of Mus musculus with 15 samples.

Results

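The expression of 10 genes that microglia switch on when they become activated was followed in whole brains of young and old mice fed with or without fasting days. The genes were Clec7a, Itgax, Axl, Cst7, Lyz2, Lpl, Spp1, Csf1, Lgals3 and Capg, and they were found by symbol among the 43629 genes listed for each mouse, of which 26269 had a count in any mouse. RNA from the whole brain of 15 mice, all C57BL/6J males, was sequenced with 1 library per mouse and counted per gene. Young mice were 3 months and old mice 24 months of age in the labels. Control mice had food ad libitum (AL), and the other mice were fed every other day (EOD, called IF in the labels), with food present and absent in turn. The groups were young AL (n = 4), young EOD (n = 3), old AL (n = 4) and old EOD (n = 4). All mice came from a single inbred, all-male cohort, for which the paper names no genetic modification. The young EOD mice had been on the diet only briefly and the old EOD mice for most of their lives, so that age and duration of the diet changed together. The 10 genes had been chosen by their counts in these same 15 mice, normalised to library size and compared between the 4 groups, so their own values across the groups are a description and carry no test.

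Microglia are the resident macrophages of the brain. In ageing, in models of Alzheimer's disease and around damaged myelin, a part of them takes on a state named disease-associated microglia, in which genes of phagocytosis, lysosomes and lipid handling are turned up and genes of surveying microglia, such as P2ry12 and Tmem119, are turned down. The later steps of this change depend on the lipid-sensing receptor Trem2 and its adaptor Tyrobp. Several of the 10 genes are not made by microglia alone. Axl, Lpl, Spp1 and Csf1 are also expressed by other brain cells, among them astrocytes, neurons and vascular cells, whereas Clec7a, Itgax, Cst7 and Lyz2 are largely confined to myeloid cells in the brain.

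The libraries held 5198748 to 13610729 counts. The third young AL mouse stood apart. Despite the largest total, it had counts in only 17280 genes, where each of the other 14 mice had 19054 to 20880. Its correlations with them had a median of 0.957, while the medians of those 14 mice were 0.980 to 0.987. For the 10 genes, the log2 fold changes with age in AL mice are therefore also given without this mouse. For genes of the other lists, log2 fold changes are given only with this mouse included. All 14 markers of surveying microglia were detected, and neuronal markers summed to 7288 to 9268 CPM, the count scaled to a library total of 1000000 after adjusting the totals with edgeR's TMM factors. The libraries had been run on 3 lanes, of which the first 2 held all 4 groups and the third held no young EOD mouse. All 10 genes passed the filter on low counts that left 15864 genes, but Clec7a, Itgax, Cst7 and Lgals3 had so few counts in young mice that they could pass only through the old ones, so a count over the genes that passed is no support for a difference.

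The 250 bases before the start sites of Clec7a, Itgax, Cst7 and Lyz2, the genes largely confined to myeloid cells, are shown because these genes were high together in old brains. Promoters were taken from RefSeq (GRCm38.p6), where 9 of the 10 genes matched and Lpl did not. The windows lie at chr6:129472780-129473029 (minus strand, the more downstream of the RefSeq starts) for Clec7a, chr7:128129300-128129549 (plus strand) for Itgax, chr2:150570165-150570414 (plus strand) for Cst7, chr10:117282273-117282522 (minus strand) for Lyz2 and chr5:104434861-104435110 (plus strand, the more upstream of the RefSeq starts) for Spp1, which is added as the only gene with PU.1 letters. Capitals mark matches to motifs of 2 factors used by macrophages, AP-1 (TGANTCA) and PU.1 (GAGGAAGT).
Clec7a: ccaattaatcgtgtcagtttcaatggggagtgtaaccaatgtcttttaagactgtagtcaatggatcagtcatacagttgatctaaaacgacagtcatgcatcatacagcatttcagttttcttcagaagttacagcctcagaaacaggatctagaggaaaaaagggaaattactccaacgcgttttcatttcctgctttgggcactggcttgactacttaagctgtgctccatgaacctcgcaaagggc
Itgax: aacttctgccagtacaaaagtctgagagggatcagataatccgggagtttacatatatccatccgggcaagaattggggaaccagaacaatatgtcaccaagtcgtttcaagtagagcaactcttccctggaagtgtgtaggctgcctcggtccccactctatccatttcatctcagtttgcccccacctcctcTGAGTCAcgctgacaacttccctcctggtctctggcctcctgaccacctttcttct
Cst7: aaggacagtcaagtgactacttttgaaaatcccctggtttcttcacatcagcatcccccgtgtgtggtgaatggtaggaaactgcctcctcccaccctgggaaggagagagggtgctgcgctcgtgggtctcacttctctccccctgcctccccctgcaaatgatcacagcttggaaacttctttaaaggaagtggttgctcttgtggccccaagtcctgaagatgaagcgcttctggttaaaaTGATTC
Lyz2: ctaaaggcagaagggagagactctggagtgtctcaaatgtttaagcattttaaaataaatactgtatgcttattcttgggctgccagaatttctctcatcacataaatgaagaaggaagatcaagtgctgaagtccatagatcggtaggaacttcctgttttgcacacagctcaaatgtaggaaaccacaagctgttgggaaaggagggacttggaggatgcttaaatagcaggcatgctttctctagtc
Spp1: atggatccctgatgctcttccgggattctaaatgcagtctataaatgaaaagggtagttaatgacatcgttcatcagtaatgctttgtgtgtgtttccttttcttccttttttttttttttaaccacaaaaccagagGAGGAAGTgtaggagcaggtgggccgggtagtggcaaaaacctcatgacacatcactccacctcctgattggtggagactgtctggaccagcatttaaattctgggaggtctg

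Both strands were searched from 250 bases before to 50 after the start. The AP-1 letters were found in 2 of the 9 genes with a promoter. They stood as TGAGTCA 56 bases before the start of Itgax and as TGATTCA 6 bases before that of Cst7, where the last letter is the first transcribed base and lies past the printed run. They occur in 7.81% of 32851 promoters, or in 8.97% of 27025 genes. The PU.1 letters stood 113 bases before the start of Spp1 and occur in 3.2% of promoters, or in 3.69% of genes. CACGTG, the E-box read by the lysosomal regulator Tfeb, was in none of the windows of these genes. It occurs in 7.15% of promoters, or in 8.09% of genes. A match is a stretch of letters and not a bound site, and a window without one holds no information on the factor.

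Clec7a, which encodes the beta-glucan receptor dectin-1 (chr6:129461591-129472777, GRCm38), was close to the limit of detection in young brains. Its level was 1.20, 0.366, 0 and 0.251 CPM in the 4 young AL mice and 0.718, 0.172 and 0.919 CPM in the 3 young EOD mice, at 0 to 10 counts per mouse. Old AL mice had 5.22, 4.19, 6.24 and 5.21 CPM, and old EOD mice had 3.93, 2.05, 4.05 and 2.69 CPM. Every old mouse lay above every young mouse, and every old EOD mouse lay below every old AL mouse. The log2 fold change with age was 3.66 ± 0.51 (SE) in AL and 2.31 ± 0.57 in EOD mice, or 3.20 ± 0.41 and 2.30 ± 0.44 without the third young AL mouse, which had no count. The ratio of summed counts, with the totals taken into account, was 13.6 in AL (95% exact interval 8.21 to 23.8) and 5.06 in EOD mice (2.96 to 9.29), for counting error only. With EOD in old mice it was -0.69 ± 0.40. A second gene without a symbol shares 735 of the 2287 exonic bases of Clec7a on the same strand, and it had 0 counts in all mice.

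Itgax (chr7:128129547-128150656), the integrin alpha chain CD11c that pairs with Itgb2, had 1 to 3 counts in each young mouse. Young AL mice ranged from 0.0754 to 0.241 CPM and young EOD mice from 0.205 to 0.394 CPM. Levels of 2.86, 2.75, 2.08 and 2.43 CPM were measured in old AL and of 1.004, 1.36, 1.29 and 2.50 CPM in old EOD mice. The groups of young and old mice did not overlap, while the fourth old EOD mouse lay within the old AL range and the other 3 below it. The ratio of summed counts, with the totals taken into account, was 16.4 between old and young AL mice (95% exact interval 7.60 to 41.9) and 5.07 between old and young EOD mice (2.32 to 13.1), where the intervals cover counting error only. In AL mice the fitted age difference was 3.89 ± 0.47, or 3.64 ± 0.46 without the third young AL mouse, on the log2 scale. With EOD in old mice the log2 fold change was -0.73 ± 0.35.

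Axl (chr7:25757273-25788705), a receptor tyrosine kinase that clears apoptotic cells through the bridging ligands Gas6 and Pros1, was the most even of the 10 genes. Its group means were 50.3 ± 3.03 (SD, n = 4) CPM in young AL, 55.8 ± 2.38 (n = 3) in young EOD, 54.1 ± 2.59 (n = 4) in old AL and 55.9 ± 2.65 (n = 4) in old EOD mice. The groups overlapped in each comparison of age within a diet and of diet within an age. The log2 fold change with age was 0.11 ± 0.08 in AL (0.13 ± 0.08 without the third young AL mouse) and 0.00 ± 0.08 in EOD mice.

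**Figure D1:**
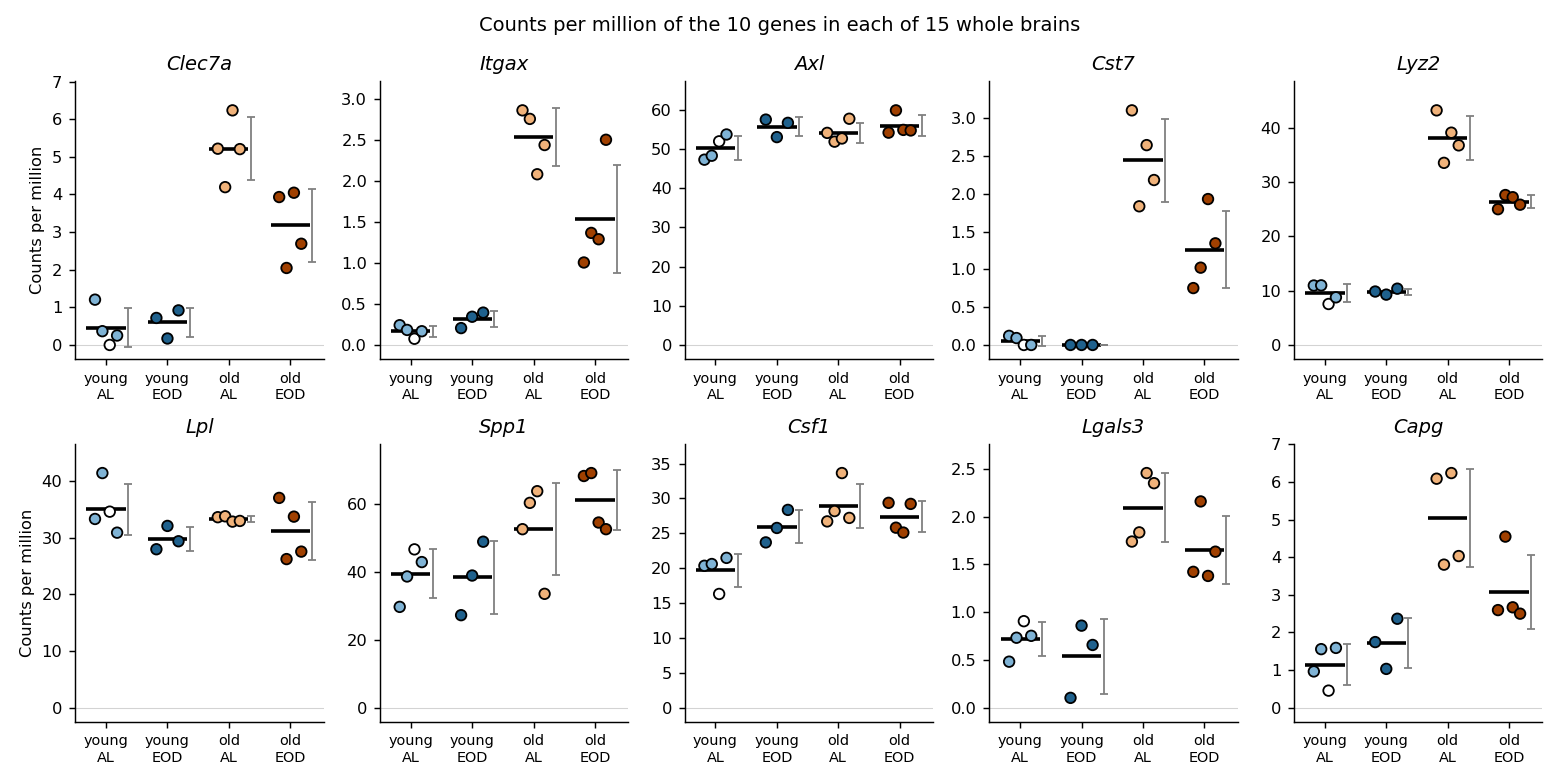
CPM (y axis, linear) of each of the 10 genes in every mouse of the 4 groups (x axis). Points are mice, horizontal lines are group means, grey bars are ± 1 SD, and the white point is the third young AL mouse. Clec7a, Itgax, Cst7, Lyz2, Capg and Lgals3 were higher in every old than in every young mouse of the same diet, while Axl and Lpl overlapped between young and old mice of the same diet.

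Cst7 (chr2:150570415-150578944), which encodes cystatin F, an inhibitor of cathepsins that is delivered to lysosomes, came nearest to being absent from the young brain. It had 1 count in each of 2 young AL mice and 0 counts in the other 2 and in all 3 young EOD mice. Old AL mice had 25, 14, 14 and 26 counts (3.11, 1.84, 2.65 and 2.18 CPM), and old EOD mice had 9, 9, 21 and 14 counts (0.753, 1.02, 1.93 and 1.35 CPM). The third old EOD mouse lay within the old AL range and the others lay below it. Relative to the totals, the 79 counts of old AL mice against 2 of young AL mice gave a ratio of 53.8 with a 95% exact interval of 14.4 to 452, and the third young AL mouse was 1 of the 2 without a count (fitted log2 fold change 5.38 ± 0.65, or 4.97 ± 0.62 without it). The 53 counts of old EOD mice against none in young EOD mice meant an at least 9.79-fold higher level, with the young group set to a floor of 3 counts. With EOD in old mice the log2 fold change was -0.94 ± 0.41, and no fold is given for the young mice, which were at or under the floor on both diets.

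Lyz2 (chr10:117277334-117282274), the lysozyme of myeloid cells, had 54 to 438 counts per mouse. Young AL mice had 10.95, 10.98, 7.54 and 8.77 CPM and young EOD mice 9.84, 9.27 and 10.4 CPM. Old AL mice had 43.2, 33.6, 39.1 and 36.8 CPM, and old EOD mice had 25.0, 27.6, 27.2 and 25.8 CPM. The 3 levels were thus separate: young mice of both diets at the bottom, old EOD mice in between and old AL mice at the top, with no mouse of one level inside another. Its log2 fold change was 2.01 ± 0.12 with age in AL mice (1.91 ± 0.12 without the third young AL mouse), 1.42 ± 0.14 with age in EOD mice, -0.53 ± 0.11 with EOD in old mice and 0.06 ± 0.15 with EOD in young mice, which turned to -0.05 ± 0.14 without that mouse. Lyz2 has a close paralogue, Lyz1. The paper reports unique counts, so reads that fit both genes equally would not be counted for Lyz2.

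Lpl (chr8:68880491-68907448), the lipase that frees fatty acids from lipoproteins, overlapped in each comparison of age within a diet and of diet within an age. Means were 35.1 ± 4.51 CPM (SD, n = 4) in young AL, 29.8 ± 2.09 (n = 3) in young EOD, 33.3 ± 0.469 (n = 4) in old AL and 31.2 ± 5.11 (n = 4) in old EOD mice. With age the log2 fold change was -0.07 ± 0.11 in AL (-0.07 ± 0.12 without the third young AL mouse) and 0.07 ± 0.12 in EOD mice.

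Among the secreted ligands, Spp1 (chr5:104435118-104441050), which encodes osteopontin, had its highest mean in old EOD mice, as did Axl by a small margin. Young AL mice had 29.7, 38.7, 46.7 and 43.0 CPM, and young EOD mice had 27.3, 39.0 and 49.0 CPM. Old AL mice had 52.7, 60.4, 63.9 and 33.6 CPM, the last of which lay within the young range, and old EOD mice had 68.3, 69.2, 54.6 and 52.7 CPM, all above the young EOD mice. The log2 fold change with age was 0.39 ± 0.18 in AL (0.48 ± 0.19 without the third young AL mouse) and 0.68 ± 0.20 in EOD mice, and with EOD in old mice it was 0.23 ± 0.18.

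Csf1 (chr3:107741048-107760469) encodes a growth factor that microglia need to survive and divide. The 4 young AL mice had 20.3, 20.6, 16.3 and 21.5 CPM and were lower than all other mice. Levels were 23.7, 25.8 and 28.4 CPM in young EOD, 26.7, 28.2, 33.6 and 27.2 CPM in old AL and 29.4, 25.8, 25.1 and 29.2 CPM in old EOD mice. Csf1 differed with age by a log2 fold change of 0.55 ± 0.11 in AL mice and 0.08 ± 0.12 in EOD mice, and with EOD by 0.40 ± 0.12 in young and -0.07 ± 0.11 in old mice. Without the third young AL mouse, the lowest of all, the values were 0.47 ± 0.11 with age in AL and 0.32 ± 0.12 with EOD in young mice.

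Lgals3 (chr14:47367751-47386160), the lectin galectin-3 that marks damaged lysosomes, had 1 to 28 counts per mouse. Its level was 0.481 to 0.905 CPM in young AL, 0.103 to 0.859 CPM in young EOD, 1.74 to 2.46 CPM in old AL and 1.38 to 2.16 CPM in old EOD mice. Old mice of both diets lay above the young mice and overlapped with each other. Its log2 fold change with age was 1.497 ± 0.40 in AL (1.63 ± 0.39 without the third young AL mouse) and 1.71 ± 0.50 in EOD mice.

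Capg (chr6:72544391-72562983), a protein that caps actin filaments in macrophages, had 0.963, 1.56, 0.453 and 1.59 CPM in young AL mice and 1.74, 1.03 and 2.36 CPM in young EOD mice. Old AL mice had 6.09, 3.80, 6.24 and 4.03 CPM and old EOD mice had 2.59, 4.55, 2.67 and 2.50 CPM. The second old EOD mouse reached the old AL range, and the other 3 were only just above the highest young EOD mouse. The log2 fold change with age was 2.12 ± 0.36 in AL (1.82 ± 0.32 without the third young AL mouse) and 0.80 ± 0.39 in EOD mice, and with EOD in old mice it was -0.71 ± 0.32.

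Compared per length of transcript, the genes spanned a wide range of levels. In young AL brains Spp1 was highest at 24.0 ± 4.43 CPM per kb (SD, n = 4), followed by Axl, Lyz2 at 7.55 ± 1.34, Lpl at 5.15 ± 0.663 and Csf1 at 3.74 ± 0.438. Lyz2 and Lpl overlapped between mice, and the others did not overlap with their neighbours. Capg, Lgals3, Clec7a, Cst7 and Itgax followed at 0.451 to 0.0412 CPM per kb, each overlapping with the next. Young EOD brains had the same first 3 genes, with Spp1 at 23.3 ± 6.59 CPM per kb (n = 3), and Csf1 at 4.93 ± 0.444 stood before Lpl at 4.38 ± 0.307 with overlap. In old AL brains Lyz2 moved up to 30.1 ± 3.21 CPM per kb and overlapped with Spp1 at 31.9 ± 8.21, and Cst7, the ninth in young AL brains, came sixth at 2.48 ± 0.561. The order in old EOD brains had the same first 5 genes as in old AL brains, with Spp1 at 37.1 ± 5.33 above Lyz2 at 20.9 ± 0.955 CPM per kb and without overlap, and Itgax was last of the 10 in both.

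Counts were compared with edgeR's quasi-likelihood test across all genes, with Benjamini-Hochberg adjustment and a threshold of FDR 0.1. With age in AL mice, 6 of the 10 genes were called (Lyz2, Itgax, Cst7, Clec7a, Capg and Csf1), all higher in old mice, where 0.946% of all genes were called higher. In EOD mice 3 were called (Lyz2, Cst7 and Itgax), where 0.258% of all genes were called higher. Without the third young AL mouse, where 146 and 62 of all 15687 genes were called higher, the numbers were 7 and 4. Lgals3 was added in AL and Clec7a in EOD mice. Each old mouse was above each young mouse for 7 of the genes in AL, against 2.98% of all genes, and for 7 in EOD, against 4.75%. Lpl, Axl and Spp1 in AL and Lpl, Axl and Csf1 in EOD mice were the genes that overlapped. Since these contrasts chose the genes, nothing is read from the counts. The median log2 fold change of the 10 genes was 1.75 in AL and 1.11 in EOD mice, also with Cst7 at its bound, against -0.01 and -0.00 over all genes tested.

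**Figure D2:**
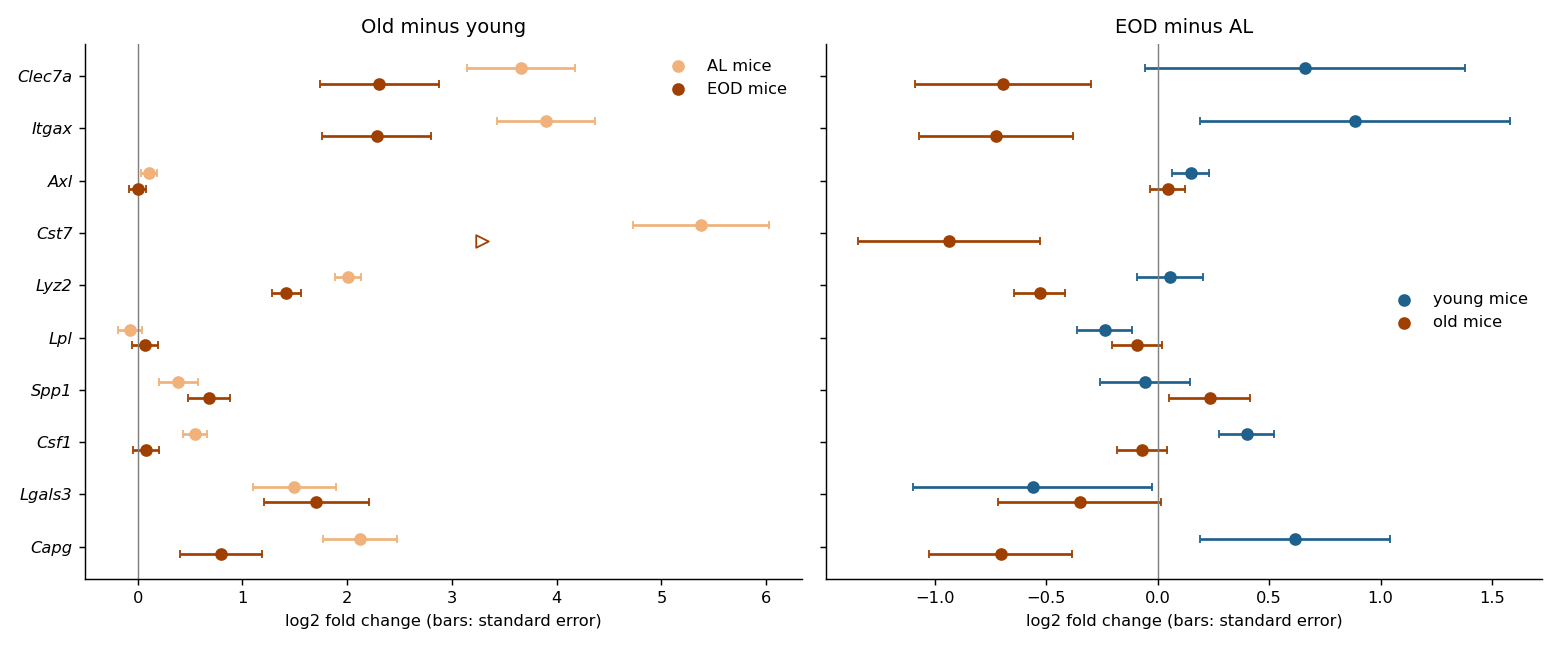
Fitted log2 fold changes (x axis) of the 10 genes (y axis), old minus young in AL and EOD mice (left) and EOD minus AL in young and old mice (right), with bars for ± 1 standard error. The open triangle is the lower bound for Cst7, whose young EOD mice had 0 counts, and no value is drawn for Cst7 between the young groups. The age differences of Clec7a, Itgax, Lyz2 and Capg were 3.66, 3.89, 2.01 and 2.12 in AL and 2.31, 2.28, 1.42 and 0.80 in EOD mice. Those of Spp1, Lgals3 and Lpl were 0.39, 1.497 and -0.07 in AL and 0.68, 1.71 and 0.07 in EOD mice. The interaction was called for none of the 10 genes.

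Diet was compared within each age. In old mice none of the 10 genes was called by edgeR, and none by DESeq2, where 0% of all genes were called by edgeR. At an unadjusted p under 0.05, edgeR listed 4 (Lyz2, Cst7, Capg and Itgax), all lower in EOD mice, where 2.58% of all genes were listed in either direction. The fitted log2 fold change was above 0 for 2 of the 10 genes (Axl and Spp1), against 8059 of the 15864 genes tested, and the median was -0.44 against 0.00 over all genes. The comparisons that chose the genes included diet, so nothing is read from the counts or the median for diet. For 2 of the genes, Clec7a and Lyz2, every old EOD mouse was below every old AL mouse, as was the case for 1.36% of all genes. When the third young AL mouse was left out of DESeq2 Lyz2 was called. In young mice none was called by edgeR or DESeq2, where edgeR called 0% of all genes and DESeq2 called 1 gene in all. At an unadjusted p under 0.05, edgeR listed 1 of the 10 genes, Csf1, and 4.14% of all genes. Without the third young AL mouse the log2 fold change with EOD in young mice was 0.21 ± 0.61 in place of 0.66 ± 0.72 for Clec7a, and 0.33 ± 0.38 in place of 0.62 ± 0.43 for Capg. Csf1 was also the 1 gene without overlap, higher in every young EOD mouse, as were 2.4% of all genes.

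The difference between the age effects on the 2 diets was tested as an interaction. None of the 10 genes was called by edgeR or by DESeq2, where 0% of all genes were called, and 3 (Capg, Csf1 and Lyz2) had an unadjusted p under 0.05 in edgeR, as did 2.28% of all genes. Nothing is read from these counts either. The log2 interaction was -1.32 ± 0.53 for Capg, -0.47 ± 0.16 for Csf1 and -0.59 ± 0.19 for Lyz2, where a value below 0 is a smaller age difference in EOD mice. It was -1.61 ± 0.79 for Itgax and -1.35 ± 0.83 for Clec7a, and 0.29 ± 0.27 for Spp1 and 0.21 ± 0.63 for Lgals3. Without the third young AL mouse it was -1.035 ± 0.47 for Capg, -0.39 ± 0.15 for Csf1, -0.49 ± 0.17 for Lyz2, -1.36 ± 0.79 for Itgax, -0.90 ± 0.68 for Clec7a, 0.20 ± 0.27 for Spp1 and 0.09 ± 0.59 for Lgals3.

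Within lanes, 9 of the 10 genes were higher in old than in young AL mice in each of the 3 lanes, the exception being Lpl in the first 2 and Spp1 in the third. The only young AL mouse in lane 2 was the third, which stood apart, so the age difference in AL mice rests on it in that lane. Old EOD mice were higher than young EOD mice for 9 genes in lane 1 and for 8 in lane 2. Between old groups, Clec7a, Itgax, Cst7, Lyz2 and Capg were lower in EOD mice in all 3 lanes. For Lyz2 the difference of old EOD from old AL mice was -18.2, -8.71 and -10.2 CPM in the 3 lanes, and for Clec7a it was -1.28, -3.17 and -1.84 CPM. Spp1 was higher in old EOD mice in all 3 lanes. With 1 or 2 mice per group and lane these values have no test of their own.

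Other genes of the same microglial state were examined in a list of 35, of which 33 were tested. With age in AL mice 15 rose and none fell, and the median log2 fold change was 0.37, against -0.01 over all genes. Those with the smallest p were Tyrobp, the signalling adaptor of Trem2 (1.10 ± 0.13, edgeR FDR 6.26e-05), B2m, the light chain of MHC class I (0.72 ± 0.09, FDR 6.58e-05), the lysosomal protease Ctsd (0.47 ± 0.06, FDR 0.000204), Lgals3bp, a secreted binding partner of galectins (0.98 ± 0.15, FDR 0.000686), the lysosomal protease Ctsz (0.70 ± 0.11, FDR 0.00104), the endolysosomal glycoprotein Cd68 (0.93 ± 0.15), Cd52 (1.88 ± 0.35) and the chemokine Ccl3 (4.05 ± 0.81). Cd68 stood at 5.77 ± 0.424 CPM in young AL and at 11.01 ± 1.52 CPM in old AL mice (mean ± SD of 4 mice each). Ccl3 stood at 0.0458 ± 0.0915 CPM in young AL and at 0.925 ± 0.242 CPM in old AL mice. With so few counts in young mice, Ccl3 could pass the filter only through the old ones, so its call is no support for a difference.

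In EOD mice, where 0.258% of all genes were called higher, 6 of the 33 rose with age and none fell, with a median of 0.32. They were B2m (0.58 ± 0.10, edgeR FDR 0.00559), Gpnmb, a glycoprotein of lipid-laden macrophages (1.33 ± 0.26), Lgals3bp (0.83 ± 0.16), Ctsd (0.34 ± 0.07), Trem2 (0.99 ± 0.20, edgeR FDR 0.0335) and the chemokine Ccl6 (1.86 ± 0.40). Without the third young AL mouse, 12 of 32 rose with age in AL and 10 in EOD mice, and Ccl3 was no longer among those tested. Over all 15687 genes of that fit, 146 were called higher with age in AL and 62 in EOD mice. No gene of the list was called for diet at either age or for the interaction by edgeR, and none by DESeq2. At an unadjusted p under 0.05 edgeR listed 9 for diet in the old, 2 for diet in the young and 2 for the interaction. The shares of all genes listed were 2.58%, 4.14% and 2.28%. The median log2 difference with EOD in old mice was -0.07. Cd68 was lower in every old EOD mouse, at 7.30 to 8.07 CPM, than in every old AL mouse, at 10.2 to 13.3 CPM, a gene and pattern picked out after the values were seen.

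**Figure D3:**
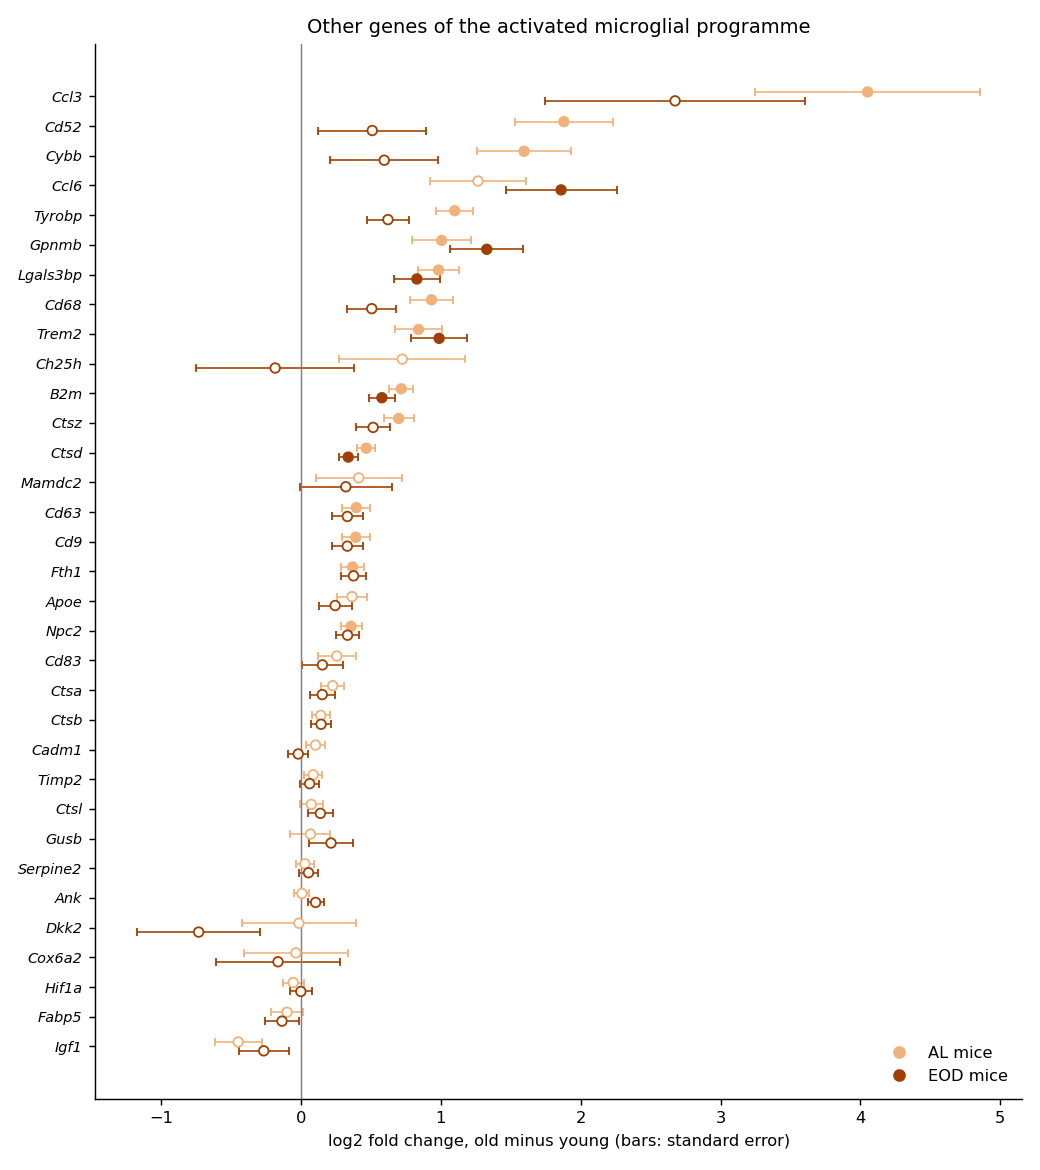
Log2 fold change with age (x axis, bars ± 1 standard error) of 33 other genes of the activated microglial state (y axis, ordered by the value in AL mice), in AL and in EOD mice. Filled points passed FDR 0.1 in edgeR, 15 in AL and 6 in EOD mice, and all filled points lie above 0.

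Binding partners, ligands and receptors of the 10 genes formed a second list of 21, of which 20 were tested. Of these, 3 rose with age in AL mice: Itgb2, the beta chain that pairs with Itgax (1.12 ± 0.18, edgeR FDR 0.00225), Itgb5, an integrin chain that binds osteopontin (0.76 ± 0.13, FDR 0.00380), and Trem2 (0.84 ± 0.17, FDR 0.0136). The level of Itgb2 was 5.14 ± 1.31 CPM in young and 11.3 ± 1.69 CPM in old AL mice (mean ± SD, n = 4 each). Trem2 alone rose in EOD mice, from 5.88 ± 0.121 CPM (n = 3) to 11.7 ± 0.793 CPM (n = 4). Without the third young AL mouse 3 rose in AL mice, and 3 rose and 1 fell in EOD mice. Over all 15687 genes of that fit, 146 were called higher in AL mice, and 62 higher and 10 lower in EOD mice. The median log2 fold change of the list was 0.16 in AL and 0.09 in EOD mice. None was called for diet or the interaction by edgeR, with 4 at an unadjusted p under 0.05 for diet in the old, 2 for diet in the young and 1 for the interaction. The shares of all genes at that cut were 2.58%, 4.14% and 2.28%. With age, 0.946% of all genes were called higher in AL and 0.258% in EOD mice.

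Surveying microglia were followed by 14 marker genes, all tested. Their summed level was 459 to 518 CPM in young AL, 437 to 476 CPM in young EOD, 554 to 608 CPM in old AL and 524 to 600 CPM in old EOD mice, so that every old mouse had more than every young mouse. Among them Selplg rose with age in AL mice (0.63 ± 0.16, edgeR FDR 0.0760), a call that is lost without the third young AL mouse (FDR 0.191). None fell. P2ry12 and Tmem119 had log2 fold changes with age of -0.02 ± 0.11 and 0.32 ± 0.17 in AL mice. None was called for diet at either age, with 2 in young and 0 in old mice at an unadjusted p under 0.05 in edgeR, as had 4.14% and 2.58% of all genes. The means of the sum were 571 and 574 CPM in old AL and old EOD mice. In bulk RNA, more cells of a type and more RNA per cell cannot be told apart.

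Markers of other cells that can express these genes were read beside them. Border macrophages (10 genes, 8 tested) summed to 32.9 to 42.7 CPM in young AL, 30.2 to 36.2 in young EOD, 25.4 to 36.1 in old AL and 25.3 to 27.6 in old EOD mice, with no gene called for age in edgeR and 2 in AL and 1 in EOD mice at an unadjusted p under 0.05, as had 9.51% and 5.74% of all genes. Of the 11 genes of monocytes and neutrophils, 3 were tested. Ly6g, which defines neutrophils, had 0 counts in every mouse. Other neutrophil genes were found in old AL mice, where S100a8 ranged from 0.393 to 5.86, S100a9 from 0.124 to 9.26 and Ngp from 0 to 5.48 CPM. Camp and Retnlg reached only 0.756 and 0.378 CPM there. The 11 genes summed to 0 to 2.17 CPM in young AL, 1.64 to 2.89 in young EOD, 3.04 to 5.38 in old EOD and 1.74, 3.67, 35.7 and 13.3 CPM in old AL mice. Lcn2, which reactive astrocytes also make, rose with age in AL mice (4.53 ± 0.87, edgeR FDR 0.00929). At 0 to 0.394 CPM in young mice, Lcn2 could pass the filter only through the old ones. In the old AL mice, in the order of the sums above, Lyz2 stood at 43.2, 33.6, 39.1 and 36.8 CPM. A relation between the 2 was not tested. Genes of T and B cells, of which 1 of 9 was tested, summed to 5.90 to 13.01 CPM over all mice and none was called. Most of this sum was Cd4, with group means of 7.11 to 11.1 CPM. Each of the other genes was at most 0.655 CPM in any mouse, so the sum does not follow them.

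Red cell genes (5) summed to 27.9 to 62.3 CPM in all mice but the third and second old EOD mice, at 64.7 and 101 CPM, and none was called. Choroid plexus (6 genes, 333 to 1232 CPM), leptomeningeal fibroblasts (6), neurons (7), oligodendrocyte precursors (4) and endothelial cells (6) had no gene called for age in either diet. Of 6 astrocyte genes Gfap rose in AL (1.22 ± 0.08) and EOD mice (1.10 ± 0.08), and of 6 oligodendrocyte genes Mbp rose in AL mice (0.39 ± 0.09, edgeR FDR 0.0515). The Mbp call is lost without the third young AL mouse, where the smallest edgeR FDR of the oligodendrocyte genes was 0.156. No gene of these lists was called for diet or the interaction by edgeR or DESeq2. Per list, 0 to 3 genes had an unadjusted p under 0.05 in edgeR, where 2.28% to 4.14% of all genes did. The 3 were among the 6 astrocyte genes, for diet in young mice, where 4.14% of all genes were listed. For diet in old mice 1 astrocyte gene was listed, Gfap (-0.30 ± 0.07), where 2.58% of all genes were. DESeq2 also called 1 oligodendrocyte precursor gene lower with age in each diet. The part of these cells in the levels of the 10 genes was not tested.

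**Figure D4:**
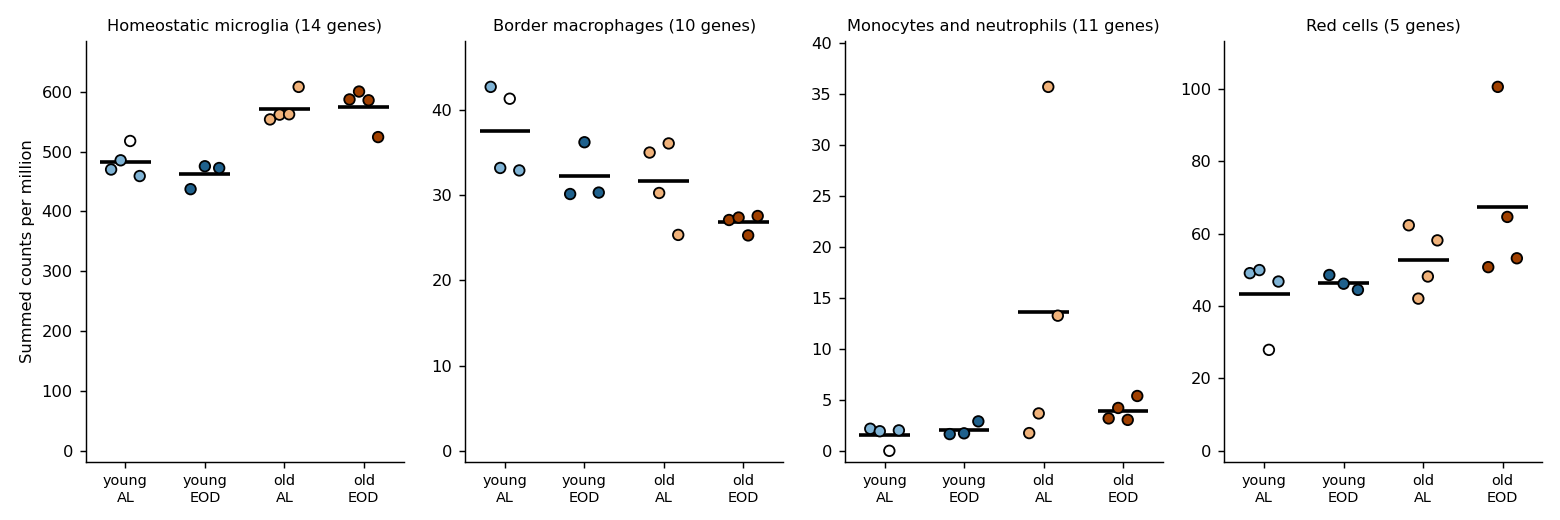
Summed CPM (y axis, from 0) of marker genes of surveying microglia, border macrophages, monocytes and neutrophils, and red cells in each mouse of the 4 groups (x axis), with lines at the group means and the third young AL mouse in white. The microglial sum was 554 to 608 CPM in old AL and 524 to 600 CPM in old EOD mice, above all young mice, and 2 old AL mice had 35.7 and 13.3 CPM of monocyte and neutrophil genes.

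Variation between mice of the same group was little shared among the 10 genes. Over the 14 mice without the third young AL mouse, deviations of log2 CPM from the group means had a median Pearson r of 0.03 over the 45 pairs of genes, with a range of -0.58 (Axl and Lpl) to 0.70 (Cst7 and Lyz2), and 3 pairs were above 0.5. All genes of a pair were read in the same libraries, and with the low counts of Cst7, Itgax and Clec7a weak values are not read further. The genes whose deviations were most like the mean of the 10 were Ddx20 (r = 0.91), Uqcrfs1, Ispd, Ndufa6 and Taf6l (r = 0.85) of 14020 genes compared over 14 mice. With all 15 mice the 5 leading genes shared 0 with these, so the likeness rested on which mice were used.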

How the data were processed

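RNA of 15 whole brains was analysed. The authors trimmed the reads, aligned them with STAR to GRCm38 and, per the file headers, used featureCounts 1.5.0-p1 (reverse-stranded, primary alignments, mapping quality of at least 5) with Ensembl release 79 gene models; the deposited values are raw counts per gene, without normalization, and no version of STAR is given in the sources used here. Every later step was computed here. The mice were grouped by the labels, and separate labels per mouse make each library 1 replicate. No pair of replicate mice agreed within sampling noise (chi-square per degree of freedom at least 3.01 over 21 pairs). Totals of 5198748 to 13610729 counts leave genes below about 1 CPM with few counts, and intervals and floors (95%, 3 counts over the group) cover counting error only.

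The tests used edgeR 4.0.16 under R 4.3.3 (filterByExpr, TMM, quasi-likelihood test of 4 group means, Benjamini-Hochberg over all 15864 genes tested, FDR under 0.1), after the code had been tested on simulated data. A standard error is the size of the log2 fold change over the root of its F statistic. Members and gene lists were chosen with earlier results of these data known. Named from each list were all 10 members and at most 8 called genes per comparison, those with the smallest p. The lists held other genes of the activated state, partners, and markers of 12 cell types. Alternatives were other filters, size factors, DESeq2 1.42.0, FDR 0.05, a replicate block, lane as a covariate, fits of the compared groups alone, and fits without each mouse in turn. DESeq2 without the third young AL mouse was added after the data had been seen. Gene coordinates are those of the deposited files, and promoters are from RefSeq. Mice with the same replicate number did not deviate together (r over 0.1 in 2 of 21 pairs, range -0.11 to 0.11), so the numbers were not used as pairs. Some genes of the lists are not reported here.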

Additional observations from a re-analysis of the deposited data

Results flagged for a closer look

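In 2 of 30 checks of a gene in a group of 4 mice, 1 mouse lay far from the other 3 (the gap to its nearest neighbour over the range of the group, above Dixon's 95% critical value for 4 values), and chance alone gives about 1 in 20. Both were the second old EOD mouse. Its Axl level was 59.89 CPM, against 54.2 to 54.9 CPM in the other old EOD mice, and its Capg level was 4.546 CPM, against 2.50 to 2.67 CPM. The same mouse had the highest sum of red cell genes of all mice, 101 CPM, and the part of that in its Axl and Capg levels was not tested.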

How the results depend on the processing

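With at least 10 counts required in every mouse, the genes called fell to 2 with age in AL and 1 in EOD mice, since Clec7a, Itgax, Cst7, Capg and Lgals3 were then not tested, and the medians of the remaining members were 0.39 with age in AL, 0.084 with age in EOD, -0.077 with diet in old mice and -0.10 for the interaction. With every gene of at least 1 count, 1 member, Lyz2, was called for diet in old mice, as by DESeq2 without the third young AL mouse (1). Other genes of the activated state called with age numbered 8 in AL mice with only the groups compared, and 10 in EOD mice with DESeq2, with or without that mouse. Leaving out each mouse in turn gave 1 to 4 members called with age in EOD mice (1 without the first young EOD mouse, 4 without the third young AL mouse), 1 to 10 other genes of the state (1 without the second old EOD mouse, 10 without the third young AL mouse), a member median of 0.96 to 1.27 with age in EOD mice and of -0.46 to -0.25 for the interaction. Over all genes, the calls with age in AL mice (173) became 444 with every gene of at least 1 count, 266 with DESeq2, 86 with only the groups compared and 102 without the third old AL mouse. Those in EOD mice (46) became 100, 73 and, without single mice, 19 to 72. With every gene of at least 1 count, 26 genes were called for diet in young, 27 for diet in old mice and 26 for the interaction. The cause was not tested. In the alternatives that tested them, 5 members were called in all for age in AL mice (Clec7a, Itgax, Cst7, Lyz2 and Capg) and 1, Lyz2, for age in EOD mice. Itgax stood near the threshold in EOD mice and was called in 5 of 23 alternatives.

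With the replicate number as a block, 6 members were called with age in AL and 2 in EOD mice, where Itgax was lost, and 13 and 4 other genes of the state. The block changed no call of a member for diet or the interaction.

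Genes with few counts in young mice limit what depth can show: for Cst7, Itgax and Clec7a the intervals of the age ratios were wide from counting error alone.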
